A study of Homo sapiens with 9 samples.

Results

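The long noncoding RNA (lncRNA) probes of a human mRNA and lncRNA m6A array were examined in PC9 cells with knockdown of ALKBH5. The members were all noncontrol probes whose identifier begins with ASHGV4, a rule that uses the identifier alone and no measured value, and there were 5876 of them among the 60541 RNA probes of the array. They were set beside the 50802 probes whose identifier begins with ASHG19AP1, called the main probe set here, which is mostly protein-coding but also holds lncRNAs. The files give no gene names for either set, and the sequences of the probes were not used here.

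PC9 is an established human lung adenocarcinoma cell line. The cells were transfected with siALKBH5#1, siALKBH5#3 or the nontargeting control siNC at 15 nM, and total RNA was taken after 96 h. Each group held 3 biological replicates, and each replicate was run on its own array. The unfragmented RNA was separated with an anti-m6A antibody into an immunoprecipitated fraction (IP, labeled with Cy5) and the supernatant left behind (Sup, labeled with Cy3), and both fractions of 1 sample were hybridized together on 1 array. All groups share the same line, so the comparison asks what lower ALKBH5 does to the modification and amount of lncRNAs in this line alone. The abundance of ALKBH5 itself was not analysed here, so the knockdown was not checked on these arrays.

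N6-methyladenosine (m6A) is a methyl mark on adenosines inside RNA that is placed by a methyltransferase complex containing METTL3 and METTL14, read by YTH domain proteins and removed by the demethylases ALKBH5 and FTO. lncRNAs are transcripts without a long open reading frame, usually present at lower amounts than mRNAs and often retained in the nucleus, where ALKBH5 also resides. Some well studied lncRNAs, such as MALAT1, carry m6A.

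The array siALKBH5#1 replicate 3 stood apart from the others. Over the 786 lncRNA probes analysed for their level, the log2 ratio of IP to Sup on this array had a mean correlation of 0.56 with the other arrays, against 0.734 to 0.847 for each of the remaining arrays (a description across probes of 9 arrays). Its median lncRNA abundance relative to spike-in RNA was the lowest, at -2.35 log2 units, while the other arrays lay between -1.78 and -0.562. The main comparisons of siALKBH5#1 with siNC are therefore given with and without this array. siALKBH5#1 replicate 1 was the only array of its scan, and the remaining 8 shared another.

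Most lncRNA probes gave little signal in the IP fraction. A probe counts as detected when the scanner software marks it as well above background. In the Sup fraction, 63.3%, 54.5% and 56.2% of the lncRNA probes were detected on the siNC arrays, 51.1%, 43.1% and 70.8% with siALKBH5#1, and 60.3%, 53.9% and 51.0% with siALKBH5#3. In the IP fraction, the shares were 17.8%, 20.2% and 26.1% with siNC, 24.1%, 17.0% and 23.0% with siALKBH5#1, and 24.7%, 31.7% and 20.2% with siALKBH5#3. On every array fewer lncRNA probes were detected in IP than in Sup, and the 3 groups overlapped in both fractions. In the main probe set, between 41.2% and 61.5% of the probes were detected in IP and between 71.3% and 89.6% in Sup.

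The mean IP share was 21.3% ± 4.26 (SD, n = 3) in siNC. It was 21.4% ± 3.86 (SD, n = 3) after siALKBH5#1 and 25.5% ± 5.80 (SD, n = 3) after siALKBH5#3. The difference from siNC was 0.0227 percentage points with siALKBH5#1 (two-sided exact permutation p = 1.0) and 4.20 percentage points with siALKBH5#3 (two-sided exact permutation p = 0.4). The Sup share was lower than in siNC by a mean difference of -3.01 percentage points with siALKBH5#1 (two-sided exact permutation p = 0.8) and -2.92 with siALKBH5#3 (two-sided exact permutation p = 0.5). With 3 arrays against 3, the smallest p that permutations can give is 0.1, so these comparisons could not pass 0.05. With all arrays, none of these differences was larger than the spread between the replicates. When siALKBH5#1 replicate 3 was left out, the difference with siALKBH5#1 was -0.789 percentage points in IP (two-sided exact permutation p = 0.8) and -10.9 in Sup (two-sided exact permutation p = 0.2), where both remaining arrays lay below every siNC array. Without siALKBH5#1 replicate 2, the Sup difference with siALKBH5#1 turned to 2.94, and without siNC replicate 1 it was -0.366. The IP difference with siALKBH5#3 fell from 4.20 to 1.1 without siALKBH5#3 replicate 2.

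Over the 9 arrays together, 2438 of the 5876 lncRNA probes (41.5%) were detected in Sup on every array and 1423 (24.2%) on none. In IP, 805 (13.7%) were detected on every array and 3717 (63.3%) on none. Both fractions were detected on all arrays for 803 lncRNA probes (13.7%), against 36.6% of the main probe set. Signal in IP without signal in Sup was rare, since 2 lncRNA probes were detected in IP on all arrays but not in Sup on all of them. Of the 2438 probes always detected in Sup, 571 (23.4%) were never detected in IP and 803 (32.9%) always, whereas in the main probe set these shares were 12.1% and 52.1%.

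Much of the distance between the sets went with how bright the probes were, so the main probe set was weighted to the distribution of Sup signal of the lncRNA probes, in bins of 0.25 log2 units. Every lncRNA probe lay in a bin that also held main-set probes. At the lowest Sup value used lay 1424 lncRNA probes (24.2%) and 8.08% of the main probe set. These were not matched on a measured Sup signal. At the same Sup signal, the main-set IP share was 20.4%, 22.1% and 28.8% on the siNC arrays, 25.2%, 18.5% and 24.1% with siALKBH5#1, and 26.8%, 34.4% and 23.3% with siALKBH5#3. The lncRNA share was below it on 9 of 9 arrays, by a mean difference of -2.09 percentage points (two-sided exact sign-flip permutation test over the 9 arrays, p = 0.00391, the smallest p they can give). The test takes the arrays as units and both probe sets as fixed, so it does not cover the spread between RNAs or probes. Without matching, the mean difference was -27.1 percentage points. Among probes detected in Sup on all arrays, an alternative chosen after seeing the data, it was -4.64 percentage points with the same p in the exact permutation test. The remaining distance at equal Sup signal was therefore small beside the spread of the IP share between arrays, but it had the same sign on each of them.

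**Figure D1:**
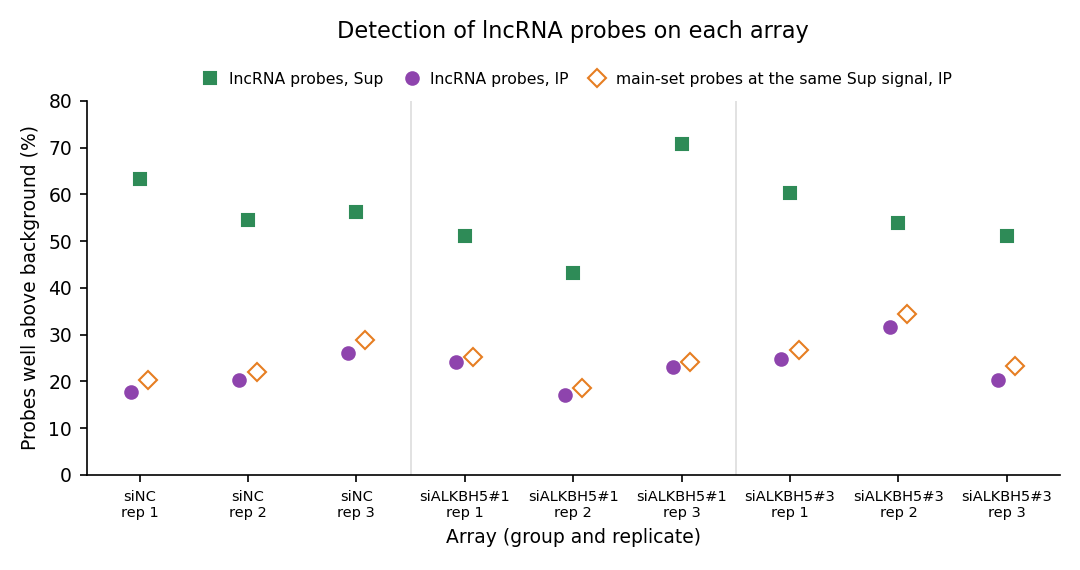
Share of probes well above background (%, vertical axis) on each of the 9 arrays (horizontal axis), for lncRNA probes in Sup (squares) and IP (circles) and for main-set probes in IP at the same Sup signal (diamonds). Each circle lies below the diamond of its array, with 17.8% against 20.4% on siNC replicate 1 and 31.7% against 34.4% on siALKBH5#3 replicate 2, while the squares lie between 43.1% and 70.8%.

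lncRNA probes that came above or fell below background in IP with an siRNA were few. With siALKBH5#3, 26 of the 5876 lncRNA probes (0.442%) were detected in IP on 3 of 3 arrays and on 0 of 3 siNC arrays, where 0.57% of all RNA probes were, and 2 (0.034%) showed the reverse, where 0.0132% of all did. With siALKBH5#1, 0 lncRNA probes went from 0 of 3 siNC arrays to 3 of 3, where 0.0215% of all RNA probes did, and 2 (0.034%) showed the reverse, where 0.167% of all did. If siALKBH5#1 replicate 3 is left out, 9 (0.153%) were detected on 2 of 2 siALKBH5#1 arrays and on 0 of 3 siNC arrays and 12 (0.204%) showed the reverse, where 0.192% and 0.446% of all RNA probes did. Both siRNAs are compared with the same siNC arrays. The lncRNA counts were close to or below these shares of all RNA probes, except for the 2 probes lost with siALKBH5#3.

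The methylation level is the fraction IP/(IP + Sup) of a transcript, calculated from signals scaled by spike-in RNA. It is meant as the share of an RNA held by the antibody, not the number of its m6A sites. Because each channel was scaled separately, the absolute level depends on that scaling. Spots that the software marked as outliers were not used. Of the 803 lncRNA probes detected in both fractions on all arrays, 786 then had at least 2 values in each group, and 134 of these lacked a value on an array. They are 13.4% of all lncRNA probes and belong to the brighter ones, so they do not stand for the whole set. In the main probe set, 18399 probes (36.2%) passed the same filter. In all, 19781 RNAs were analysed.

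The levels of single lncRNA probes spanned most of the scale. As the mean of the 9 arrays, the median level was 49.7%, the quartiles were 41.3% and 60.1%, and the values ran from 13.3% to 90.8%. A level above 75% was found for 32 probes (4.07%) and one under 25% for 16 (2.04%). At the same Sup signal, the main probe set had a median of 52.2%, quartiles of 43.1% and 63.2%, and 7.86% of its weight above 75% and 1.43% under 25%. The lncRNA distribution was shifted to lower levels, most clearly at its upper end. On single arrays, the lncRNA share above 75% was the smaller on 7 of 9 arrays, and on siALKBH5#1 replicate 3 (3.98% against 2.53%) and siNC replicate 3 (5.15% against 4.29%) it was the larger.

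**Figure D2:**
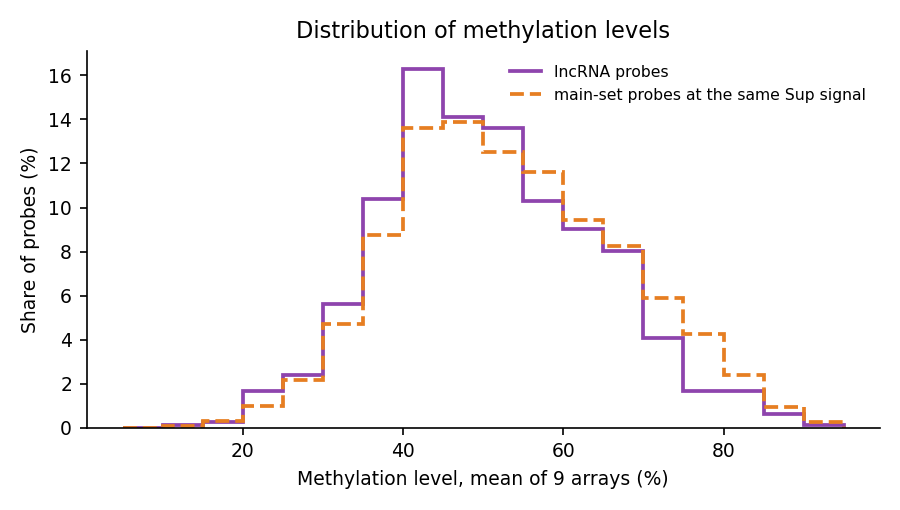
Share of probes (%, vertical axis) by methylation level as the mean of 9 arrays (%, horizontal axis, steps of 5%), for the 786 lncRNA probes (solid line) and main-set probes weighted to the same Sup signal (dashed line). The medians are 49.7% and 52.2%, and 4.07% of the lncRNA probes against 7.86% of the main set lie above 75%.

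The median lncRNA level of single arrays was 50.0%, 48.4% and 46.2% with siNC, 55.4%, 54.2% and 42.7% with siALKBH5#1, and 49.9%, 49.9% and 50.5% with siALKBH5#3. The siALKBH5#1 arrays lay on both sides of all siNC arrays because of replicate 3, and the siALKBH5#3 arrays lay near the highest siNC array and overlapped with it. The group means of these medians were 48.2% ± 1.91 (SD, n = 3) in siNC, 50.8% ± 6.99 (SD, n = 3) after siALKBH5#1 and 50.1% ± 0.351 (SD, n = 3) after siALKBH5#3. The difference from siNC was 2.57 percentage points with siALKBH5#1 (two-sided exact permutation p = 0.6) and 1.84 with siALKBH5#3 (two-sided exact permutation p = 0.3), in a design that cannot go below 0.1. The mean of siALKBH5#1 replicates 1 and 2 alone was 54.8%, which is 6.59 percentage points above siNC (two-sided exact permutation p = 0.2), and both lay above every siNC array. The difference was 0.262 without replicate 1 of siALKBH5#1 and 0.851 without its replicate 2. With siALKBH5#3, it was 0.835 without siNC replicate 3 and 2.73 without siNC replicate 1.

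At the same Sup signal, the median level of the main probe set was 53.3%, 51.6% and 48.6% with siNC, 56.9%, 55.1% and 43.8% with siALKBH5#1, and 53.3%, 54.0% and 54.3% with siALKBH5#3. The lncRNA median was lower on 9 of 9 arrays, with a mean difference of -2.63 percentage points (two-sided exact sign-flip permutation test over the 9 arrays, p = 0.00391, the smallest p they can give). Here too both probe sets are fixed, so the p does not cover the spread between RNAs or probes. Since the IP share and the level were both read at equal Sup signal, the lower level is not independent of the lower IP detection above. Which features of the RNAs or of the probes go with it, such as RNA length, was not tested.

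The distance between the sets depended on brightness. Among the 262 dimmest of the 786 lncRNA probes by Sup signal, the mean of the array medians was 52.4% against 57.6% for main-set probes of the same signal, a difference of -5.26 percentage points ± 1.65 (SD over 9 arrays), and the lncRNA median was higher on 0 of 9 arrays. Among the middle 262, it was 45.1% against 47.9%, and again higher on 0 of 9 arrays. Among the brightest 262, it was 52.4% against 51.9%, a difference of 0.438 ± 1.2 (SD over 9 arrays), and the lncRNA median was higher on 6 of 9. The lower lncRNA level was seen in the dimmer bands and not in the brightest. By its construction, the filter on IP keeps a dim probe only when its level is high, in both sets. With a filter on the Sup fraction alone, which kept 2421 lncRNA probes, the mean difference over all of them was -3.30 percentage points. There, IP signals that were not positive took the lowest positive signal of their array. Of the 2438 lncRNA probes always detected in Sup, 803 were always detected in IP, so many of these levels rest on undetected IP signal.

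**Figure D3:**
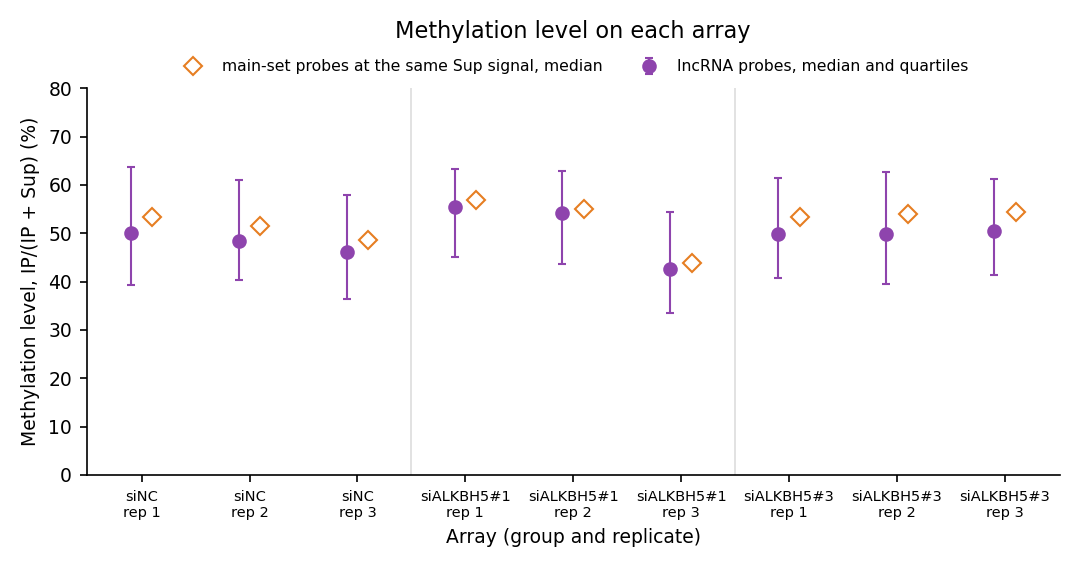
Methylation level (%, vertical axis) on each of the 9 arrays (horizontal axis), as the median and quartiles of the 786 lncRNA probes (circles and bars) and the median of main-set probes at the same Sup signal (diamonds). Each circle lies below its diamond, and siALKBH5#1 replicate 3 has the lowest median of both sets (42.7% and 43.8%).

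The spread of a single probe between replicates sets what could be detected. Within groups, the SD of the level of an lncRNA probe had a median of 7.60 percentage points (quartiles 5.00 and 10.3), beside 7.82 for the main probe set at the same Sup signal. For the abundance, log2(IP + Sup) after spike-in scaling, this SD had a median of 0.822 log2 units (quartiles 0.473 and 1.09), beside 0.799. The lncRNA probes thus varied between replicates about as much as other probes of their brightness.

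With siALKBH5#1, 4 of the 786 lncRNA probes (0.509%) had a higher methylation level when a fold change above 1.5 was required together with an unadjusted limma P under 0.01, where 0.248% of the 19781 RNAs passed, and 0 were lower, where 0.0202% passed. No lncRNA probe had a limma adjusted P under 0.05 (0.0% of all RNAs), the smallest being 0.968, and 50 lncRNA probes (6.36%) had an unadjusted P under 0.05, against 5.06% of all RNAs. The median log2 change was 0.02 over the lncRNA probes and -0.0044 over all RNAs, and single lncRNA probes ranged from -0.66 to 0.83. This median moved together with that of all RNAs. With no spike-in scaling they were -0.166 and -0.179, with the authors' levels -0.0587 and -0.0664, and without siALKBH5#1 replicates 1 and 2 -0.0277 and -0.0702 and -0.0179 and -0.0395. The lncRNA median stayed above 0 with median signals without background subtraction (0.0165). With median centring, which sets all RNAs near 0 by construction and so does not test the direction, it was 0.0171. The 4 probes that passed had mean levels between 10.5% and 33.3% in siNC and between 18.2% and 50.1% with siALKBH5#1. For 3 of the 4, the median IP signal over the arrays was between 18.4 and 23.5 intensity units, close to the lowest signals marked as well above background, which were between 8.47 and 22.0 on single arrays. Centring each array on its median, in place of spike-in scaling, gave 7 higher (0.891%) and 2 lower (0.254%), where 0.536% and 0.329% of all RNAs passed, while with the authors' levels 3 were lower (0.382%) and none was higher, where 0.136% and 0.0202% of all did.

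This count rested on single arrays. Without siALKBH5#1 replicate 3, 46 lncRNA probes (5.85%) had a higher level with siALKBH5#1 and 5 (0.636%) a lower one, where 2.97% and 0.652% of all RNAs passed, and 88 (11.2%) had a limma adjusted P under 0.05, where 7.16% of all did. The median log2 change of the lncRNA probes was then 0.139, beside 0.134 over all RNAs. Without siALKBH5#1 replicate 2, 1 probe was higher (0.127%), and without siNC replicate 1, 2 were (0.254%), where 0.152% and 0.202% of all RNAs were. Without siALKBH5#1 replicate 1, the array scanned apart from the others, 2 were higher (0.254%) and 3 lower (0.382%), where 0.202% and 0.147% of all were.

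The largest rise of the level past these thresholds was that of the probe ASHGV4000187611, whose gene is not named in the files. Its level was 9.77%, 11.5% and 10.1% on the siNC arrays, 16.1%, 17.6% and 20.9% with siALKBH5#1, and 10.7%, 9.84% and 13.3% with siALKBH5#3. All siALKBH5#1 arrays lay above all others, and the siALKBH5#3 arrays overlapped with siNC. The separation of siALKBH5#1 from siNC was a condition for naming the probe. The mean level was low in every group. It was 10.5% ± 0.908 (SD, n = 3) in siNC and 18.2% ± 2.45 (SD, n = 3) after siALKBH5#1, and siALKBH5#3 gave 11.3% ± 1.79 (SD, n = 3). The log2 change was 0.79 with siALKBH5#1 (standard error 0.156, unadjusted P 0.000385 and adjusted P 0.968 in limma) and 0.0996 with siALKBH5#3 (standard error 0.156). In the direct comparison of the siRNAs, limma gave an unadjusted P of 0.00106 and an adjusted P of 0.999.

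Over 19 alternatives, the limma adjusted P of ASHGV4000187611 ranged from 0.0287, without siALKBH5#1 replicate 3, to 1.0. It passed the thresholds in 16 of the 19, leaving out each of the 9 arrays in turn among them. It missed them with median centring and in the authors' table, although its log2 change stayed past 1.5-fold there (0.812 and 0.704). With no spike-in scaling, where it also missed them, the log2 change was 0.533. Its Sup signal was between 807 and 2400 intensity units and its IP signal between 48.5 and 498. Its abundance changed by -0.35 log2 units with siALKBH5#1 (standard error 0.60, limma adjusted P 1.0).

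With siALKBH5#3, 0 of the 786 lncRNA probes passed in either direction for the level, where 0.131% of all RNAs were higher and 0.0152% lower. No adjusted P was under 0.05 in limma's test (0.0% of all RNAs), and 18 lncRNA probes (2.29%) had an unadjusted P under 0.05, against 2.61% of all RNAs. The methods' t-test on the same values gave 0 as well. Of the lncRNA probes, 503 had a log2 change above 0 and 283 (36.0%) one below, where 30.2% of all RNAs were below 0. The median log2 change was 0.0522 over the lncRNA probes and 0.0616 over all RNAs. With no spike-in scaling these medians were 0.0777 and 0.0903, and without siNC replicate 3 they were 0.018 and 0.0232. With the authors' levels they were -0.0257 and -0.0125. Median centring, which sets all RNAs near 0 by construction, gave -0.0347 and -0.0146 and so does not test the direction. Without siNC replicate 2, and likewise without siNC replicate 3, 1 probe was higher (0.127%), where 0.136% and 0.157% of all RNAs were. With median centring, 2 were lower (0.254%), where 0.111% of all RNAs were. With the filter on Sup alone, 11 of 2421 lncRNA probes were higher (0.454%), where 0.342% of the 39710 RNAs kept by it were. That filter also keeps probes without detected IP signal.

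In the main fit, no lncRNA probe passed as fallen in level with either siRNA. With the replicate block, 1 was lower with siALKBH5#1 (0.127%), where 0.0809% of all RNAs were. In models of the compared groups alone, the block gave 1 lower with each siRNA (0.127%), where 0.177% and 0.131% of all RNAs were. The smallest unadjusted P for a fall in the main fit belonged to ASHGV4003602611, which is named for this reason and did not reach the fold change of 1.5 there. Its level was 62.0%, 63.1% and 58.3% with siNC, 49.5%, 42.2% and 46.1% with siALKBH5#1, and 60.1%, 64.3% and 52.8% with siALKBH5#3. The siALKBH5#1 arrays lay below all others, without overlap. The log2 change with siALKBH5#1 was -0.42 (standard error 0.129, unadjusted P 0.00837 and adjusted P 0.968 in limma), with adjusted P between 0.0582 and 1.0 over 19 alternatives, and -0.05 with siALKBH5#3. With siALKBH5#1 it was -0.599 with median centring and -0.8 with no spike-in scaling, both past 1.5-fold, but both thresholds were passed in 0 of the 19.

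The same probe had the smallest unadjusted P among falls in abundance. Relative to spike-in RNA, its abundance was 1.24, 1.78 and 1.47 log2 units with siNC, -0.01, -0.57 and 1.29 with siALKBH5#1, and 1.56, 1.64 and 1.44 with siALKBH5#3. siALKBH5#1 replicates 1 and 2 were low, while replicate 3 lay inside the siNC range. The log2 change with siALKBH5#1 was -1.26 (standard error 0.479, unadjusted P 0.027 and adjusted P 1.0 in limma), and without replicate 3 it was -1.79 with a limma adjusted P of 0.0237, the lowest of 18 alternatives, which reached up to 1.0. With siALKBH5#3 it was 0.05 (standard error 0.479).

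The abundance of all RNAs shifted with siALKBH5#3 by a median of 0.249 log2 units relative to spike-in RNA, so abundance changes are given beside this shift. The lncRNA median was 0.195, which is -0.05 relative to all RNAs. Both rested on single siNC arrays and on the scaling. The medians of all RNAs and of the lncRNA probes were 0.0769 and 0.0139 without siNC replicate 3, 0.453 and 0.397 without siNC replicate 1, and 0.0511 and -0.00348 with no spike-in scaling. With siALKBH5#1, the lncRNA median was 0.048 and that of all RNAs -0.0042, and the lncRNA median was -0.236, -0.273 and 0.698 without siALKBH5#1 replicates 1, 2 and 3, and 0.322 and -0.18 without siNC replicates 1 and 3. Single siALKBH5#1 arrays differed more than the groups did, since the lncRNA median against the siNC mean was 0.668, 0.733 and -1.28 log2 units on its 3 arrays and 0.182, 0.137 and 0.334 on those of siALKBH5#3. Replicate 3 of siALKBH5#1 was low and the other 2 high, and the 3 arrays of siALKBH5#3 were alike.

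With siALKBH5#1, 0 of the 786 lncRNA probes passed the thresholds for abundance, where 0.177% of all RNAs were higher and 0.0758% lower, and 13 (1.65%) had an unadjusted P under 0.05, against 1.71% of all RNAs. None had a limma adjusted P under 0.05 (0.0% of all RNAs). Without siALKBH5#1 replicate 3, 109 (13.9%) were higher and 30 (3.82%) lower, where 10.4% and 2.51% of all RNAs passed, and 47 (5.98%) had a limma adjusted P under 0.05, where 3.24% of all did. The median of all RNAs was then 0.641 log2 units and that of the lncRNA probes 0.698. With all 9 arrays and median centring, 7 lncRNA probes were higher (0.891%) and 3 lower (0.382%), where 0.612% and 0.703% of all RNAs were.

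With siALKBH5#3, 6 of the 786 lncRNA probes (0.763%) were more abundant at these thresholds, where 0.288% of all RNAs passed, and 0 were less abundant, where 0.101% did. None had a limma adjusted P under 0.05 (0.0% of all RNAs), and 9 (1.15%) had an unadjusted P under 0.05, against 1.52% of all RNAs. The 6 probes changed by 1.72 to 2.66 log2 units, beyond the median shift, and the siALKBH5#3 and siNC arrays did not overlap for any of them, although 2 of the 6 lacked a value on 1 array. With siALKBH5#1 the same probes changed by 0.259 to 1.14 log2 units, and both comparisons share the siNC arrays. Their level changed by -0.0894 to 0.351 log2 units with siALKBH5#3.

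Without siALKBH5#1 replicate 3, which enters this comparison only through the common estimate of the spread, 26 lncRNA probes (3.31%) were more abundant with siALKBH5#3, where 3.44% of all RNAs were, and 6 (0.763%) had a limma adjusted P under 0.05, where 0.293% of all did. With only siALKBH5#3 and siNC in the model, 18 were more abundant (2.29%) and 1 less (0.127%), where 2.35% and 0.313% of all RNAs were, and 2 (0.254%) had a limma adjusted P under 0.05, where 0.0404% of all did. With no spike-in scaling 2 were more abundant (0.254%), where 0.162% of all were. With median centring 12 were more (1.53%) and 5 less abundant (0.636%), where 1.29% and 0.748% of all were.

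The largest of these rises in abundance was that of the probe ASHGV4000341511. Its abundance was -0.28, -0.70 and -1.34 log2 units with siNC, -0.02, -0.29 and -1.23 with siALKBH5#1, and 2.27, 1.66 and 1.74 with siALKBH5#3. All siALKBH5#3 arrays lay above all others, and siALKBH5#1 overlapped with siNC. The separation of siALKBH5#3 from siNC was a condition for naming the probe. Before scaling, its Sup signal was 378, 315 and 386 intensity units with siNC, 369, 245 and 1230 with siALKBH5#1, and 2640, 1400 and 1430 with siALKBH5#3, so that siALKBH5#1 replicate 3 came near the siALKBH5#3 arrays. In IP, this array (574) lay above siALKBH5#3 replicate 3 (272). The log2 change was 2.66 with siALKBH5#3 (standard error 0.448, unadjusted P 0.000212 and adjusted P 1.0 in limma) and 0.259 with siALKBH5#1 (standard error 0.448), and the direct comparison of the siRNAs gave an unadjusted P of 0.000444 and an adjusted P of 0.726 in limma. The replicate block in a model of siALKBH5#3 and siNC alone, chosen after seeing the data, gave the lowest limma adjusted P, 4.15e-05. Replicate numbers do not pair these groups, and without the block that model gave a limma adjusted P of 0.0294. The probe passed the thresholds in 18 of 18 alternatives, with limma adjusted P up to 1.0 and under 0.05 in 3 of them. Its level was 32.0% ± 3.12 (SD, n = 3) with siNC and 40.4% ± 4.30 (SD, n = 3) with siALKBH5#3, which is 0.335 log2 units more (standard error 0.205, adjusted P 1.0 in limma).

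**Figure D4:**
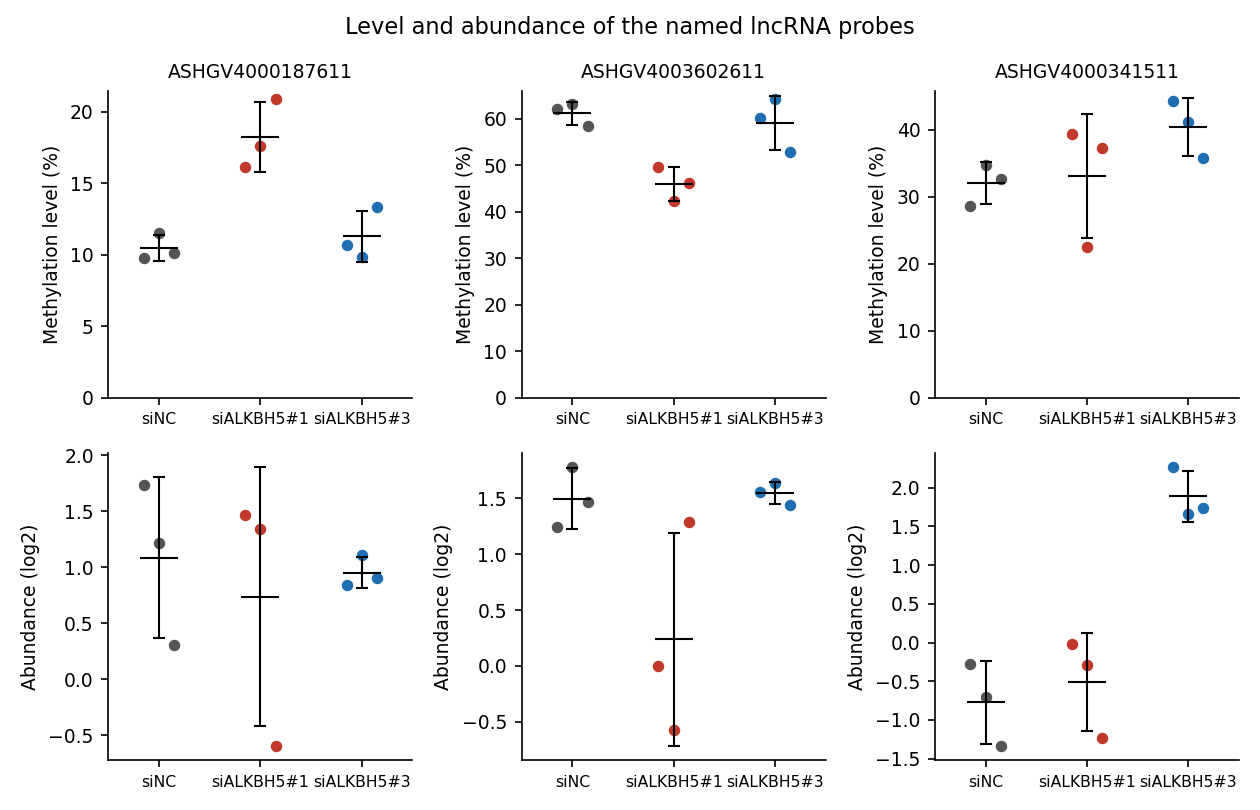
Methylation level (%, upper row) and abundance relative to spike-in RNA (log2 units, lower row) of the 3 named lncRNA probes in siNC, siALKBH5#1 and siALKBH5#3. Points are single arrays and bars the mean and SD of 3 arrays. The siALKBH5#1 points stand above the others for the level of ASHGV4000187611 and below them for ASHGV4003602611, and the siALKBH5#3 points stand above the others for the abundance of ASHGV4000341511. For ASHGV4000187611 and ASHGV4000341511, this separation from siNC was a condition of their choice.

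The study's supplement lists CTD-2170G1.2 and DGCR11 among its hypermethylated genes, and the ratios and P values in its list identified 1 ASHGV4 probe for each. A further name of that list, RP11-112J3.15, also matched 1 ASHGV4 probe and was added after its values were seen. CTD-2170G1.2 and RP11-112J3.15 are clone-based names of lncRNA genes, and DGCR11 is an lncRNA gene of the DiGeorge critical region on chromosome 22. None of the 3 was among the 786 probes analysed, because none was detected in IP on all arrays, and they were chosen in the study from these arrays, so their values are a description without a test.

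CTD-2170G1.2 had IP signals of 3.84, 6.10 and 5.43 intensity units with siNC, 23.0, 7.94 and 16.8 with siALKBH5#1, and 14.2, 25.3 and 14.0 with siALKBH5#3. They were well above background on 0 of 3 siNC arrays, 1 of 3 siALKBH5#1 arrays (replicate 1) and 3 of 3 siALKBH5#3 arrays. Its Sup signals were 48.0, 43.9 and 34.0 with siNC, 40.4, 23.7 and 67.8 with siALKBH5#1, and 48.4, 42.6 and 34.7 with siALKBH5#3, all well above background. Before scaling, the detected IP signals of both siRNAs exceeded the lowest signal well above background on every siNC array (9.41, 10.1 and 13.5). The other siALKBH5#1 signals are not ranked against siNC, and the Sup signals of the groups overlapped. Its level with siALKBH5#3 was 39.5%, 39.0% and 54.0%, and the siNC level is known only as a limit of 33.3%, obtained with each siNC IP signal set to the lowest well above background on its array, so that the mean level was at least 1.31-fold higher. On single siNC arrays this limit was 39.9%, 32.5% and 28.5%, and the first lies above siALKBH5#3 replicates 1 and 2, so that overlap of single arrays is not excluded. With siALKBH5#1 the level was 64.4% on replicate 1. The IP signals of replicates 2 and 3 were not well above background, so their calculated levels, 54.4% and 23.9%, are not exact.

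DGCR11 was dimmer. Its IP signals were -0.362, -0.351 and 4.58 intensity units with siNC, 5.38, 3.68 and 0.961 with siALKBH5#1, and 11.2, 22.0 and 11 with siALKBH5#3. They were well above background with siALKBH5#3 on 3 of 3 arrays and on no array of the other groups. Its Sup signals were 11.6, 7.09 and 10.7 with siNC, 5.84, 3.95 and 10.6 with siALKBH5#1, and 17.1, 12.7 and 14.1 with siALKBH5#3. Before scaling, the Sup signals were brighter with siALKBH5#3 than on every siNC array. The siNC IP signals were not well above background and are not ranked. On siNC replicate 3, the lowest IP signal well above background was 13.5, more than the 11.2 and 11 of siALKBH5#3 replicates 1 and 3. The scaled Sup signal was higher by a mean of 0.789 log2 units but overlapped, since siNC replicate 1 (-5.78) lay above siALKBH5#3 replicates 1 and 2 (-5.84 and -5.89). The limit of its siNC level, 67.4%, lay above the siALKBH5#3 level of 64.4%, so no fold change is given. In RefSeq (GRCh38.p14), DGCR11 lies within the protein-coding gene DGCR2 on the same strand, and whether its probe also reads RNA of DGCR2 was not tested.

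RP11-112J3.15 had IP signals of 1.52, 2.91 and 3.25 intensity units with siNC, 13.5, 5.32 and 2.88 with siALKBH5#1, and 11.8, 16.2 and 5.44 with siALKBH5#3. They were well above background on 0, 1 and 2 of the 3 arrays of these groups. The siNC signals and those of siALKBH5#1 replicates 2 and 3 and siALKBH5#3 replicate 3 were not well above background and are not ranked. The Sup signals were between 14.9 and 20.0 with siNC, between 12.9 and 25.8 with siALKBH5#1, and between 18.4 and 26.1 with siALKBH5#3, and overlapped. Its siNC level is limited to 54.3%, above the 47.4% calculated with siALKBH5#3, and no fold change is given.

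**Figure D5:**
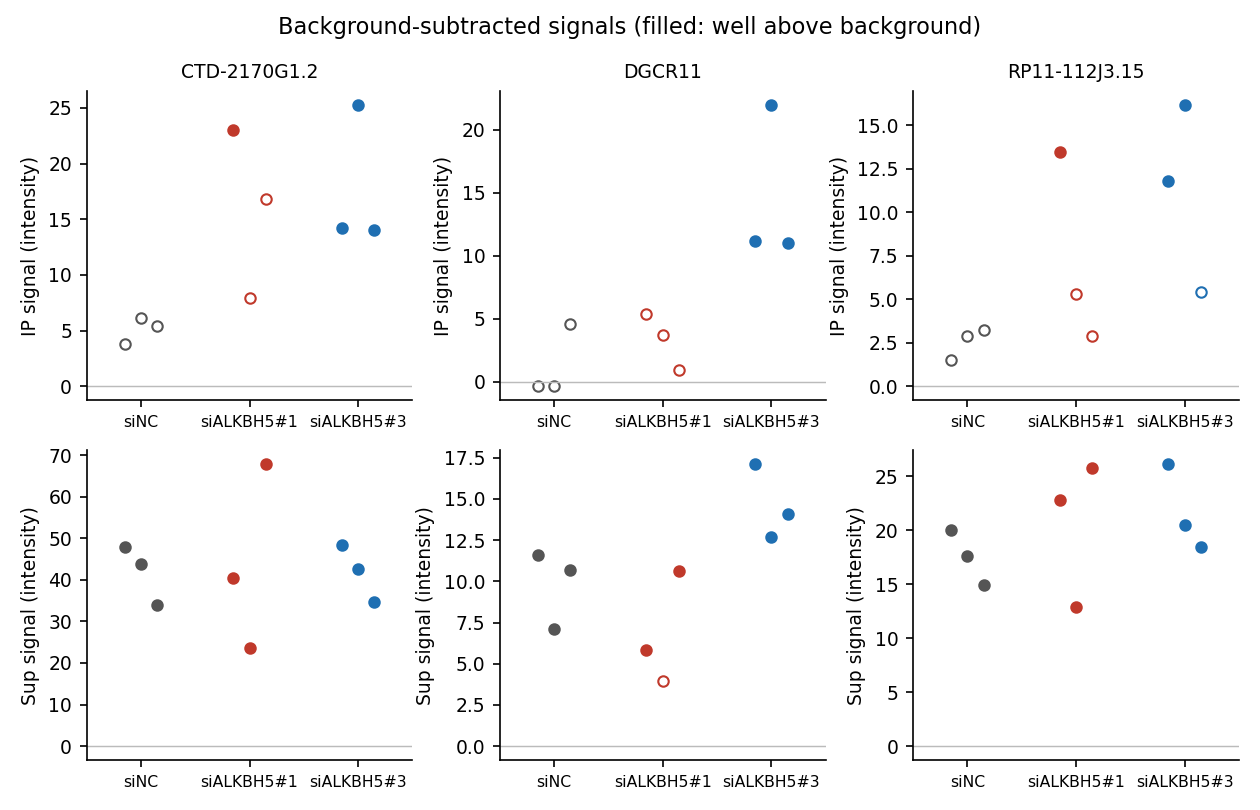
Background-subtracted IP (upper row) and Sup (lower row) signals in intensity units, before spike-in scaling, of CTD-2170G1.2, DGCR11 and RP11-112J3.15 on each array, by group. Filled points are well above background and open points are not, and in IP no siNC point is filled.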

How the data were processed

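The authors deposited Agilent Feature Extraction 11.0.1.1 output for 9 arrays, which holds signal intensity per spot with background marks, and their own methylation levels, each a fraction of IP in the sum of both channels, for 30656 probes including 1517 lncRNA probes. The steps from the deposited dye-normalized signals to that fraction are given only in part in the sources used here. Here, background-subtracted intensities were used, and each array and channel was scaled by the average log2 intensity of 13 of its 102 spike-in probes. The methods name spike-in scaling but no subset of probes, and the subset and the background-subtracted input were choices made here. Outlier spots were dropped, and no RNA spot was saturated. Precision is limited by the number of arrays, and depth is the share of probes well above background.

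limma 3.58.1 (R 4.3.3, with version 1.17.8 of data.table) was fitted on 19781 RNAs with all 3 groups in 1 model and P adjusted over all RNAs by Benjamini-Hochberg. The thresholds were those of the methods, a fold change above 1.5 and an unadjusted P under 0.01. Matching used the mean log2 spike-in scaled Sup signal over the arrays, with signals below an array's lowest well above background set to it. Python 3.11.15 with numpy 2.4.6, pandas 2.3.3, scipy 1.17.1 and matplotlib 3.10.9 was used for the rest. Members and lists were chosen with earlier results of these data known. Named were CTD-2170G1.2, DGCR11 and, for level and abundance, the probe with the largest rise and fall past the thresholds without overlap and with values on all arrays, or with the smallest unadjusted P where none passed. The name RP11-112J3.15 was added later. Supplement genes were matched within 0.0011 for the log2 ratio and 1.1e-05 for P. The dyes were not swapped, so a bound that joins both channels may carry dye bias.

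Replicate numbers were checked for pairing by the correlation of deviations from group means over all RNAs. For the level, it was 0.602, 0.243 and 0.778 between siALKBH5#1 and siNC arrays of the same number, all above the bound of 0.1 used here for pairing, which rests on that correlation alone, although siALKBH5#1 replicate 2 correlated more with siNC replicate 1 (0.481) than with its own number. The main fit and the permutation tests between groups are unpaired, and the block is an alternative. It was -0.316, -0.287 and -0.300 for siALKBH5#3 and siNC. For abundance it was 0.797, -0.0843 and 0.812 and -0.601, -0.00356 and -0.677, so numbers pair neither. Alternatives were other signals, scalings, filters, tests, blocks and matching, the authors' levels, and leaving out each array. With the filter on Sup alone, IP signals that were not positive took the lowest positive signal of their array. Names and neighbours came from RefSeq tables.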

Additional observations from a re-analysis of the deposited data

Results flagged for a closer look

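The gap between the lncRNA and the main-set median level at the same Sup signal differed between the siRNAs. It was -3.32, -3.12 and -2.39 percentage points on the siNC arrays, -1.47, -0.904 and -1.01 with siALKBH5#1, and -3.43, -4.14 and -3.86 with siALKBH5#3. With the signals and filter used here, every siALKBH5#1 array had a narrower gap than every siNC array, and every siALKBH5#3 array a wider one. The means were -2.94 ± 0.493 (SD, n = 3), -1.13 ± 0.303 (SD, n = 3) and -3.81 ± 0.360 (SD, n = 3), and siALKBH5#3 minus siALKBH5#1 was -2.68 percentage points (two-sided exact permutation p = 0.1, the smallest that 3 arrays against 3 can give, so that the design cannot pass 0.05). This difference was -1.23 with median signals without background subtraction and -0.994 with the filter on Sup alone, where the arrays of the siRNAs overlapped, and -1.68 in the authors' table. In these 3 alternatives, the arrays of each siRNA also overlapped with siNC, and with the filter on Sup alone the mean gap was -3.64 with siALKBH5#3 and -3.62 in siNC. The cause was not tested.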

How the results depend on the processing

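The lower IP detection and lower level of lncRNA probes kept their sign and their side of 0.05 in the exact permutation test under all 13 and 16 alternatives run, with mean differences from -27.1 to -1.97 and from -3.30 to -1.84 percentage points. The alternatives that left out single arrays could change neither, because the difference had the same sign on every array. Counts of probes past the thresholds moved more, and the cause was not tested. They are given with the shares of lncRNA probes and of all RNAs that passed. For the level with siALKBH5#1 (4), they were 1 with median signals without background subtraction (0.127%, 0.0708%), 0 with no spike-in scaling (0.0%, 0.0202%), 9 with median centring (1.15%, 0.864%), 18 with the filter on Sup alone (0.743%, 0.544%), 2 with the methods' t-test (0.254%, 0.0758%; 0 after Benjamini-Hochberg adjustment), 5 with the replicate block (0.636%, 0.339%), 7 with the replicate block in a model of these groups alone (0.891%, 0.602%), and 1 to 51 when single arrays were left out (0.127%, 0.172% to 6.49%, 3.62%). For the level with siALKBH5#3 (0), they were 2 with median centring (0.254%, 0.238%), 11 with the filter on Sup alone (0.454%, 0.345%), 1 with the replicate block (0.127%, 0.217%), 3 with that block in a model of these groups alone (0.382%, 0.415%), and 0 to 1 without single arrays (1 is 0.127%, beside 0.162% and 0.182% of all). For abundance with siALKBH5#1 (0), they were 1 with no spike-in scaling (0.127%, 0.147%), 10 with median centring (1.27%, 1.31%), 3 with the replicate block in a model of these groups alone (0.382%, 0.344%), and 0 to 139 without single arrays (139 is 17.7%, beside 12.9% of all). For abundance with siALKBH5#3 (6), they were 2 with no spike-in scaling (0.254%, 0.192%), 17 with median centring (2.16%, 2.04%), 10 with the methods' t-test (1.27%, 1.32%), 19 in a model of these groups alone (2.42%, 2.66%), 20 when that model also had the replicate block (2.54%, 1.87%), and 4 to 27 without single arrays (4 is 0.509%, beside 0.116% to 0.192% of all, and 27 is 3.44%, beside 3.88%). In models of the compared groups alone, the block also gave 1 lncRNA probe (0.127%, beside 0.227% of all RNAs) with a limma adjusted P under 0.05 for the level and 6 (0.763%, beside 0.278%) for abundance with siALKBH5#3. For abundance it was 2 without the block (0.254%, beside 0.0404%). In the model of 3 groups it gave none, and it changed no other count past the thresholds against siNC. The replicate block in models of the compared groups alone was chosen after seeing the data. So was leaving out arrays for the differences from siNC in detection and median level, while leaving them out for the other results was planned. Without single arrays, the IP share with siALKBH5#1 differed from siNC by -1.75 to 2.39 percentage points and the Sup share by -10.9 to 2.94. With siALKBH5#3, these ran from 1.1 to 6.85 and from -5.52 to -0.275. The median level differed by 0.262 to 6.59 with siALKBH5#1 and 0.835 to 2.73 with siALKBH5#3. The scan as a block equals leaving out siALKBH5#1 replicate 1. Signal over background limits the level to 13.4% of lncRNA probes.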
